A study of Mus musculus with 24 samples.

Results

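The levels of 9 genes whose expression differs along the axis of the mouse liver lobule were followed in livers of mice with and without acute pancreatitis. These zonation genes were matched by symbol among the 55536 entries of the expression table, and each had 1 entry. Of these, 6 are known as higher near the central vein (pericentral: Axin2, Lgr5, Tbx3, Rnf43, Oat and Slc1a2) and 3 as higher near the portal tract (periportal: Etnppl, Aldh1b1 and Hsd17b13). The rule that picked them used their symbols alone, but the list of symbols was drawn up with earlier results of these data known. Every mouse was a wild-type Balb/c animal 6 weeks old. There were 3 groups of 8 libraries, from healthy controls (Con), from mice with acute pancreatitis (AP) and from mice with its severe form (SAP), which in patients involves failure of other organs. The sources used here do not give the way pancreatitis was set off or the time of sampling. Whether the libraries of a group are separate mice is not said either, so the tests measure the spread among libraries, each of which is called a liver.

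Blood enters the liver lobule at the portal tract and leaves at the central vein, and hepatocytes along this path divide metabolic work between them. Endothelial cells of the central vein secrete Wnt ligands and R-spondin, which keep beta-catenin active in the hepatocytes next to them. Beta-catenin with TCF factors then drives pericentral genes such as those for glutamine synthesis and drug metabolism, and also feedback genes that limit the signal. Periportal hepatocytes carry out urea synthesis, gluconeogenesis and amino acid breakdown. Whole livers were sequenced, so position in the lobule was not measured, and a lower level cannot be told apart between fewer cells of a kind and less RNA in each.

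Promoters are shown because Wnt signalling reaches its target genes through TCF and LEF proteins, which bind the letters CTTTGA. RefSeq promoter windows of 300 bases, from 250 before to 50 after the annotated start, were found for 7 of the 9 genes (GRCm38.p6). CTTTGA on either strand occurs in 16.0% of all 32851 windows, and capitals mark each match in the sequences, which run 5′ to 3′ along the gene. Windows of 3 genes held it, Slc1a2 and Hsd17b13 with 2 matches each and Aldh1b1 with 1, and those of Axin2, Rnf43, Oat and Etnppl did not. These windows stand for a gene that rose in AP (Slc1a2), one that rose in SAP (Hsd17b13), and 2 that were lower in SAP without a match (Axin2 and Etnppl, of whose 2 windows neither held one). Aldh1b1, whose window is not printed, held a match and was lower in SAP, so genes with a match went both ways.
Slc1a2 (chr2:102706188-102706487, plus strand): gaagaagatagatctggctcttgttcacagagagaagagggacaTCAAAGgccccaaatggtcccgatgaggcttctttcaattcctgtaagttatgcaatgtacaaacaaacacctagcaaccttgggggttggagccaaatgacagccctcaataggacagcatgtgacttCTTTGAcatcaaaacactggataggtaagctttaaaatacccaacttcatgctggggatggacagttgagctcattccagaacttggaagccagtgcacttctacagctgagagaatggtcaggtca
Hsd17b13 (chr5:103977339-103977638, minus strand): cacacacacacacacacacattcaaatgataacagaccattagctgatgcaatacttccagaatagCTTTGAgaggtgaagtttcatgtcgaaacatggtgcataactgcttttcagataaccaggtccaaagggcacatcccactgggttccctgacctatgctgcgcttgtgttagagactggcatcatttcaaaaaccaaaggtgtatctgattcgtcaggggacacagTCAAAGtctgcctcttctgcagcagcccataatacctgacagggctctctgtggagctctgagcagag
Axin2 (chr11:108920099-108920398, plus strand): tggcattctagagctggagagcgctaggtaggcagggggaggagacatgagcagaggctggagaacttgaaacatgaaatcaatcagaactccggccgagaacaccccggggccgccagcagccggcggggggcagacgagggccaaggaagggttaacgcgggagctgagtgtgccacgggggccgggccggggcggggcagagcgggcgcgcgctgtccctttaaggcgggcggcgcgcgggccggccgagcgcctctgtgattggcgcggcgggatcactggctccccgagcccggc
Etnppl (chr3:130617198-130617497, plus strand): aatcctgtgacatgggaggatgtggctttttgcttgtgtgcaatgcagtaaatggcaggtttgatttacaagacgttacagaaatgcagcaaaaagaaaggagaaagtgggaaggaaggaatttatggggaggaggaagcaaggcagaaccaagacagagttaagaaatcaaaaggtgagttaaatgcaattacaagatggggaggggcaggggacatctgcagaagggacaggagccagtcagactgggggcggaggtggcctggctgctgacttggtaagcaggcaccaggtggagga
In Slc1a2 the matches begin 206 and 77 bases before the start, and in Hsd17b13 184 and 18 bases before it. The Axin2 window holds 31 CpG dinucleotides, a number that 10.6% of windows reach, against a median of 7, while the Slc1a2 window holds 1. A match is a description of these letters and not a binding site, and windows without one say nothing of sites elsewhere in the gene.

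Expression was in TPM, each gene's length-corrected share of a library's transcripts, which holds no depth, so the depth behind each value is unknown. Library sums ran from 986423 to 993642 TPM. Tests used limma on log2(TPM + 1) over the 10555 genes that averaged 1 TPM or more, with p-values adjusted over all of these and a threshold of 0.05. Each log2 change is given ± its standard error, on a scale that understates changes of low genes. Of the genes tested, 459 were higher and 119 lower in AP than in controls, 4661 higher and 3147 lower in SAP than in controls, and 4332 higher and 3275 lower in SAP than in AP. These splits depended on scaling. They were 194 and 215 in AP against controls after rescaling without the 50 most abundant genes, and 3888 and 4300 (SAP against controls) and 3708 and 4278 (SAP against AP) with libraries centred on their medians. The median log2 change of tested genes was 0.21 in SAP against controls and -0.06 with that centring. The 3 comparisons share samples, so a gene's changes in them are not independent. Transcripts of the mitochondrial genome made up 12.5 to 22.2% of TPM in controls, 7.81 to 13.7% in AP and 2.80 to 6.26% in SAP.

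In livers of mice with AP, the pericentral glutamate transporter gene Slc1a2 rose and the other 6 zonation genes tested did not pass. In SAP, the feedback gene Rnf43, the factor gene Tbx3 and the periportal genes Etnppl and Aldh1b1 fell against controls, and the periportal gene Hsd17b13 rose. Axin2, which lay under the filter on low values, was also lower in SAP (exact permutation test). Lgr5, under that filter too, was lower in 7 of 8 SAP livers. The plot of values by liver shows all 9 genes.

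**Figure D1:**
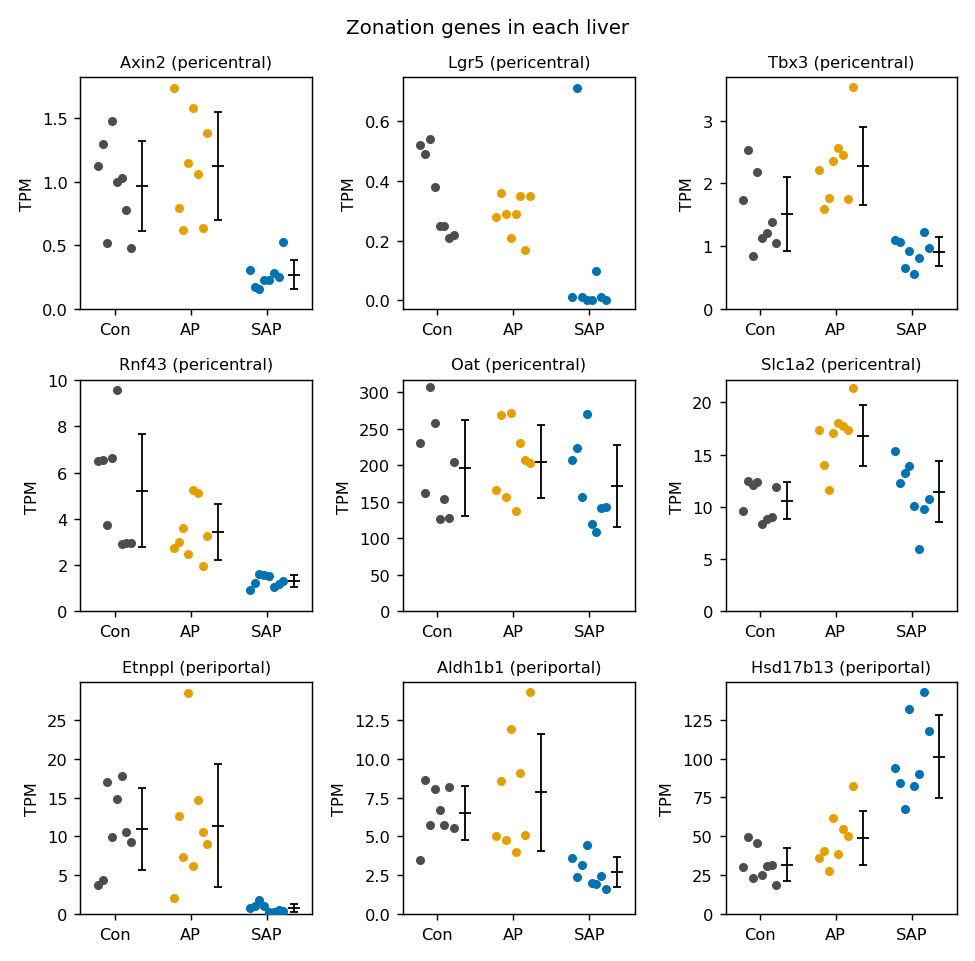
Expression (TPM, linear axes) of the 9 zonation genes in each of the 24 livers, with dots for livers in the order of their numbers and, beside them, the mean with SD of each group (n = 8; left out for Lgr5, which is listed at 0 in 3 SAP livers). Rnf43 and Etnppl are lower in every SAP liver than in any control, Hsd17b13 is higher in every one, and SAP 22 stands apart for Lgr5.

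Of the 9 genes, 7 passed the filter and 2 (Axin2 and Lgr5) did not. Against controls, AP had 1 of 7 higher and none lower, where 5.48% of all tested genes were called (4.35% higher, 1.13% lower). SAP had 1 higher and 4 lower against controls, where 74% of all tested genes were called (44.2% higher, 29.8% lower), and 1 higher and 5 lower against AP, where 72.1% were called (41% higher, 31% lower). With most genes called in SAP, a call by itself sets these genes apart little. Groups did not overlap for 3 of the 9 genes in SAP against controls and for 4 in SAP against AP, where 37.8% and 37.3% of all tested genes did not overlap. In AP against controls they overlapped for all 9 genes (0.748% of tested genes did not). By mean TPM in controls, Oat was the most abundant, followed by Hsd17b13, Etnppl, Slc1a2, Aldh1b1, Rnf43, Tbx3, Axin2 and Lgr5. Etnppl (10.9 TPM) and Slc1a2 (10.6 TPM) did not differ beyond their spread in that order. In SAP Etnppl stood below Tbx3.

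**Figure D2:**
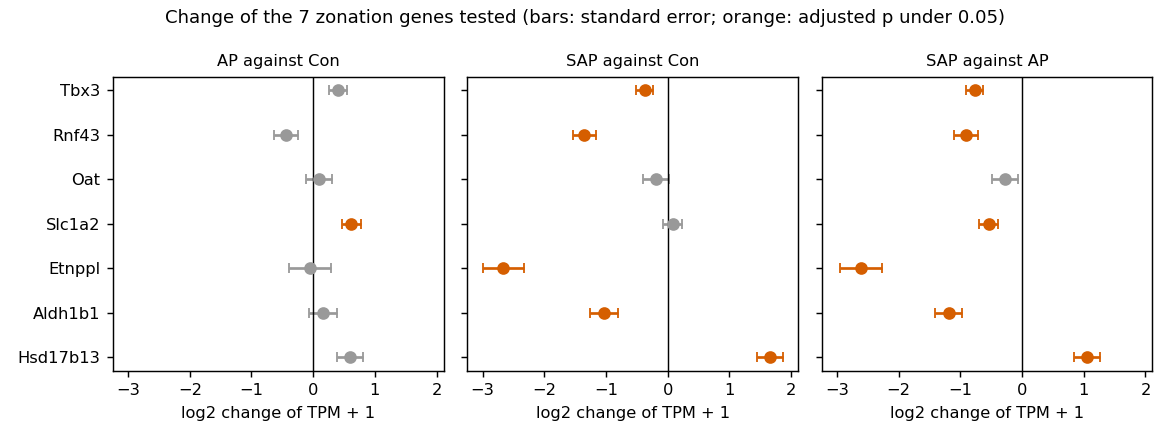
Log2 change of TPM + 1 (x axis) of the 7 zonation genes that passed the filter, in 3 panels, one for each pair of groups (8 livers a group). Dots are limma estimates, bars are standard errors, and orange marks an adjusted p under 0.05. Only Slc1a2 is orange in AP against controls, and Etnppl, Rnf43, Aldh1b1, Tbx3 and Hsd17b13 are orange in SAP against controls.

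Lgr5 encodes a receptor for R-spondins at the surface of Wnt-responsive cells. Its lowest, median and highest levels were 0.21, 0.315 and 0.54 TPM in controls and 0.17, 0.29 and 0.36 TPM in AP. In SAP the 8 livers were at 0.01 (SAP 21), 0.71 (SAP 22), 0.01 (SAP 24), 0 (SAP 25), 0 (SAP 26), 0.10 (SAP 27), 0.01 (SAP 28) and 0 TPM (SAP 29). Thus 7 SAP livers lay below every control and every AP liver, while SAP 22 lay above all of them. The smallest value above 0 that any library listed among genes with transcripts of 3000 to 6000 bases, the class of Lgr5, was 0.01 TPM, so the values of 0 and 0.01 are at the limit of the table. Against controls, the difference of mean TPM was -0.25 in SAP (p = 0.0295 by a 2-sided exact permutation test, with an adjusted p of 0.0591 over the 6 tests of Lgr5 and Axin2) and -0.07 in AP (exact permutation p = 0.237, adjusted p = 0.284). Against AP it was -0.18 (exact permutation p = 0.0584, adjusted p = 0.0876). Without SAP 22, the exact permutation test gave an adjusted p of 0.000466 against controls and against AP (p = 0.000155 in both). This p is the least that 7 against 8 livers allow. It follows from leaving out the liver that lay above all others, so it is no support for a fall. Over the alternatives the adjusted p against controls ran from 0.000466 to 0.355, the highest without SAP 26 to 29 (exact permutation tests), and it was 0.0283 after rescaling without mitochondrial transcripts. In limma without a filter (26977 genes, 41.2% called in SAP against controls and 38.8% in SAP against AP), Lgr5 was lower in SAP (adjusted p = 0.00584 against controls and 0.0333 against AP).

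Rnf43 encodes a membrane ubiquitin ligase that removes Wnt receptors and is itself a Wnt target. The lowest, median and highest values were 2.92, 5.12 and 9.57 TPM in controls, 1.97, 3.12 and 5.26 TPM in AP, and 0.91, 1.28 and 1.62 TPM in SAP. Every SAP liver lay below every control and AP liver, and AP overlapped with controls. Rnf43 fell by 1.35 ± 0.19 on the log2 scale in SAP against controls (limma adjusted p = 1.01e-06) and by 0.91 ± 0.19 against AP (adjusted p = 0.000201). In AP the mean was 3.43 ± 1.19 TPM (SD, n = 8) against 5.22 ± 2.46 in controls, a log2 change of -0.44 ± 0.19 that did not pass (adjusted p = 0.194). Controls fell into 4 livers between 2.92 and 3.72 TPM and 4 between 6.52 and 9.57 TPM.

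Axin2 encodes a scaffold of the complex that degrades beta-catenin and is used widely as a readout of Wnt signalling. In order, the lowest, median and highest levels were 0.48, 1.02 and 1.48 TPM in controls, 0.62, 1.11 and 1.74 TPM in AP, and 0.16, 0.24 and 0.53 TPM in SAP. All 8 SAP livers lay below every AP liver and 7 lay below every control, the exception being SAP 29 at 0.53 TPM. The mean was 3.57-fold lower in SAP than in controls on the TPM scale (adjusted p = 0.0014 from p = 0.000466 in the exact permutation test) and 4.15-fold lower than in AP (adjusted p = 0.000932 from an exact permutation p of 0.000155, the least that 8 against 8 livers allow). Between AP and controls the difference was 0.16 TPM (exact permutation p = 0.433, adjusted p = 0.433). Limma without a filter also called Axin2 lower in SAP (adjusted p = 0.000222 against controls).

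Tbx3 encodes a T-box transcription factor that beta-catenin induces in the liver. Across livers the lowest, median and highest were 0.85, 1.30 and 2.54 TPM in controls, 1.60, 2.28 and 3.54 TPM in AP, and 0.55, 0.945 and 1.22 TPM in SAP. SAP overlapped with the lower controls and lay wholly below AP. Tbx3 fell in SAP by 0.77 ± 0.14 on the log2 scale against AP (limma adjusted p = 2.21e-05) and by 0.37 ± 0.14 against controls (adjusted p = 0.0186). The fall against controls did not pass with array weights (adjusted p = 0.0728) or without SAP 26 to 29 (adjusted p = 0.0733), in a range from 6.7e-06 to 0.0733 over the alternatives. In AP the log2 change was 0.40 ± 0.14 and did not pass (adjusted p = 0.0874), although it passed without Con 3 (adjusted p = 0.0296) or Con 6 (adjusted p = 0.0465), the 2 highest controls. Leaving out either of these controls favours a rise, so those calls are no support for one. The change in AP also passed with quantile normalization (0.0198), median centring (0.0399) and array weights (0.0106), in a range from 0.0106 to 0.902. An antisense gene, Tbx3os1, overlaps Tbx3 exons and was listed between 0.31 and 1.21 TPM in controls, 0.26 and 1.73 TPM in AP and 0 and 0.05 TPM in SAP. Whether counting used the strand is not given in the sources used here, so reads of the pair may not be separated.

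Slc1a2 encodes a glutamate transporter of the plasma membrane, which in liver sits on the hepatocytes that make glutamine. Its lowest, median and highest levels were 8.39, 10.7 and 12.5 TPM in controls, 11.6, 17.4 and 21.4 TPM in AP, and 6.00, 11.6 and 15.3 TPM in SAP. Of the AP livers 7 lay above every control, and only AP 13 lay within their range. Slc1a2 rose in AP by 0.62 ± 0.15 on the log2 scale (limma adjusted p = 0.0185) and was lower in SAP than in AP by 0.54 ± 0.15 (adjusted p = 0.00203). SAP and controls overlapped, with a log2 change of 0.08 ± 0.15 (adjusted p = 0.649) whose sign turned under quantile normalization (-0.21), median centring (-0.20) and rescaling without mitochondrial transcripts (-0.12). The call in AP ended after quantile normalization (adjusted p = 0.0696), after rescaling without the 50 most abundant genes (0.0587), without Con 7 (0.0521) and without AP 15, 17, 18 and 19 (0.68), in a range from 0.00158 to 0.68. The call in SAP against AP ended without SAP 26 to 29 (0.0978) and without those AP livers (0.0615), in a range from 0.00011 to 0.0978. In SAP 21, 22, 24 and 25 Slc1a2 was between 12.3 and 15.3 TPM, and without SAP 26 to 29 it passed as higher than in controls (adjusted p = 0.0278, range 0.0278 to 0.937). That fit kept the higher livers of a division chosen with the data known, so its call is no support for a rise in SAP.

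Oat encodes ornithine aminotransferase, a mitochondrial enzyme that turns ornithine into a precursor of glutamate and proline. The lowest, median and highest values were 126, 183 and 307 TPM in controls, 137, 206 and 271 TPM in AP, and 109, 150 and 271 TPM in SAP. The groups overlapped throughout, and no comparison passed in limma, with log2 changes of 0.09 ± 0.21 in AP (adjusted p = 0.865) and -0.19 ± 0.21 in SAP (adjusted p = 0.412) against controls. The sign in AP turned under quantile normalization (-0.11) and after rescaling without the 50 most abundant genes (-0.04) or mitochondrial transcripts (-0.01). SAP was not uniform. Oat was between 157 and 271 TPM in SAP 21, 22, 24 and 25 and between 109 and 144 TPM in SAP 26 to 29. Without the former livers it passed as lower than in controls (limma adjusted p = 0.0357, range over alternatives 0.0357 to 0.969) and than in AP (0.0165, range 0.0165 to 0.986). This division was chosen with the data known and kept the lower livers, so these calls are no support for a fall.

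Etnppl encodes ethanolamine-phosphate phospho-lyase, which breaks down phosphoethanolamine. In order, the lowest, median and highest levels were 3.70, 10.3 and 17.8 TPM in controls, 2.0, 9.79 and 28.5 TPM in AP, and 0.27, 0.595 and 1.84 TPM in SAP. Every SAP liver lay below every control and AP liver. The mean was 14.5-fold lower in SAP than in controls on the TPM scale, and Etnppl fell by 2.66 ± 0.34 on the log2 scale (limma adjusted p = 1.75e-07). It fell by 2.61 ± 0.34 against AP (adjusted p = 2.74e-07). In AP the log2 change was -0.05 ± 0.34 and did not pass (adjusted p = 0.96). Of the 9 genes it varied most within AP, with an SD of 70.0% of the mean.

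Aldh1b1 encodes a mitochondrial aldehyde dehydrogenase. Across livers the lowest, median and highest were 3.45, 6.23 and 8.66 TPM in controls, 4.02, 6.84 and 14.3 TPM in AP, and 1.60, 2.40 and 4.48 TPM in SAP. Of the SAP livers 6 lay below every control and 7 below every AP liver. Aldh1b1 fell in SAP by 1.03 ± 0.22 on the log2 scale against controls (limma adjusted p = 0.00017) and by 1.19 ± 0.22 against AP (adjusted p = 3.12e-05). The log2 change in AP was 0.16 ± 0.22 (adjusted p = 0.744).

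Hsd17b13 encodes a dehydrogenase that sits on lipid droplets of hepatocytes. Its lowest, median and highest levels were 18.9, 30.5 and 49.3 TPM in controls, 27.7, 45.4 and 82.2 TPM in AP, and 67.5, 91.8 and 143 TPM in SAP. All 8 SAP livers lay above every control, and 6 above every AP liver. Among the 9 genes it was the one whose call in SAP was upward, by 1.66 ± 0.21 on the log2 scale against controls (limma adjusted p = 1.11e-07) and 1.06 ± 0.21 against AP (adjusted p = 7.53e-05). Above every control were 4 of the AP livers, and the log2 change of 0.60 ± 0.21 did not pass (adjusted p = 0.0909). It passed without Con 3 (adjusted p = 0.0398), Con 6 (0.0482) or AP 13 (0.0406), with libraries centred on their medians (0.0317), with array weights (0.0224) and without AP 11, 12, 13 and 16 (0.00918), in a range from 0.00918 to 1. Con 3 and Con 6 (49.3 and 45.7 TPM) were the highest controls and AP 13 (27.7 TPM) the lowest AP liver. Leaving out any of them favours a rise, so those calls are no support for one. The 4 AP livers above every control were AP 15, 17, 18 and 19, at 50.4 to 82.2 TPM, and AP 11, 12, 13 and 16 were at 27.7 to 40.5 TPM. The fit without AP 11, 12, 13 and 16 thus kept only livers above every control, so its call is no support for a rise in AP.

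Among the SAP livers, SAP 21, 22, 24 and 25 and SAP 26 to 29, sets of consecutive library numbers that stood apart over many genes in an earlier description of these data, did not overlap for Oat, Slc1a2 and Etnppl, each lower in SAP 26 to 29. Etnppl ran from 0.72 to 1.84 TPM in SAP 21, 22, 24 and 25 and from 0.27 to 0.47 TPM in SAP 26 to 29. Rnf43, Axin2, Tbx3, Hsd17b13, Aldh1b1 and Lgr5 overlapped between these sets. How many of all tested genes do not overlap between the sets was not counted. Oat, Slc1a2 and Etnppl are therefore not shown to stand out by this. The labels name nothing else that separates them, and since this division was chosen with the data known, no test between the sets is given. Fits without a set show only how far the calls depend on its livers.

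The genes around these members in the Wnt pathway were taken from lists of ligands, receptors, signal relay, and targets with inhibitors. All 8 ligand genes lay under the filter, and none passed in AP in limma without a filter, where 0.823% of 26977 genes did. In SAP against controls 4 passed as lower (Wnt2, Wnt4, Wnt9b, Rspo1) and 3 as higher (Rspo3, Wnt5a, Wnt11) with no filter, where 41.2% of these genes were called. Wnt2, a ligand of liver endothelium, was between 0.22 and 1.05 TPM (median 0.59) in controls, 0.45 and 1.11 TPM (0.74) in AP and 0.02 and 0.27 TPM (0.125) in SAP, with 7 of 8 SAP livers below every control (adjusted p = 9.16e-05). Wnt9b, a ligand of central vein endothelium, had a mean of 0.238 ± 0.0932 TPM in controls and 0.0713 ± 0.0658 TPM in SAP (adjusted p = 0.000553). Rspo3, an R-spondin made by central vein endothelium and stellate cells, went the other way, from 0.410 ± 0.120 to 1.34 ± 0.538 TPM (adjusted p = 2.68e-05), with 7 of 8 SAP livers above every control. These ligand genes were named after their values were seen. The summed level of 6 endothelial markers was 4.99 to 11.4 TPM in controls, 3.93 to 10.2 TPM in AP and 12.8 to 52.9 TPM in SAP, none of them with a group mean under 0.1 TPM. These markers did not move together in SAP. Lyve1, Stab2, Cdh5 and Thbd rose against controls, Pecam1 did not pass (adjusted p = 0.208), and Kdr went from 1.04 ± 0.331 to 0.346 ± 0.248 TPM with 7 of 8 SAP livers below every control, as for Wnt2. Lyve1 and Thbd passed the filter through SAP alone (means of 0.301 and 0.19 TPM in controls, 0.318 and 0.24 TPM in AP). Kdr lay under the filter, so which of these markers were called depends in part on it. The summed level of 7 stellate and fibroblast markers was 32.5 to 65.2, 18.7 to 56.2 and 54.8 to 124 TPM, and its largest part was Dcn, which rose from 23.1 ± 6.14 to 80.3 ± 20.5 TPM. Reln rose too, Colec11 (11.6 ± 2.37 to 2.27 ± 0.778 TPM), Des, Col1a1 and Col3a1 fell, and Lrat was at 0.543 ± 0.182 and 0.329 ± 0.141 TPM. The part of these cells in the ligand levels was not tested.

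**Figure D3:**
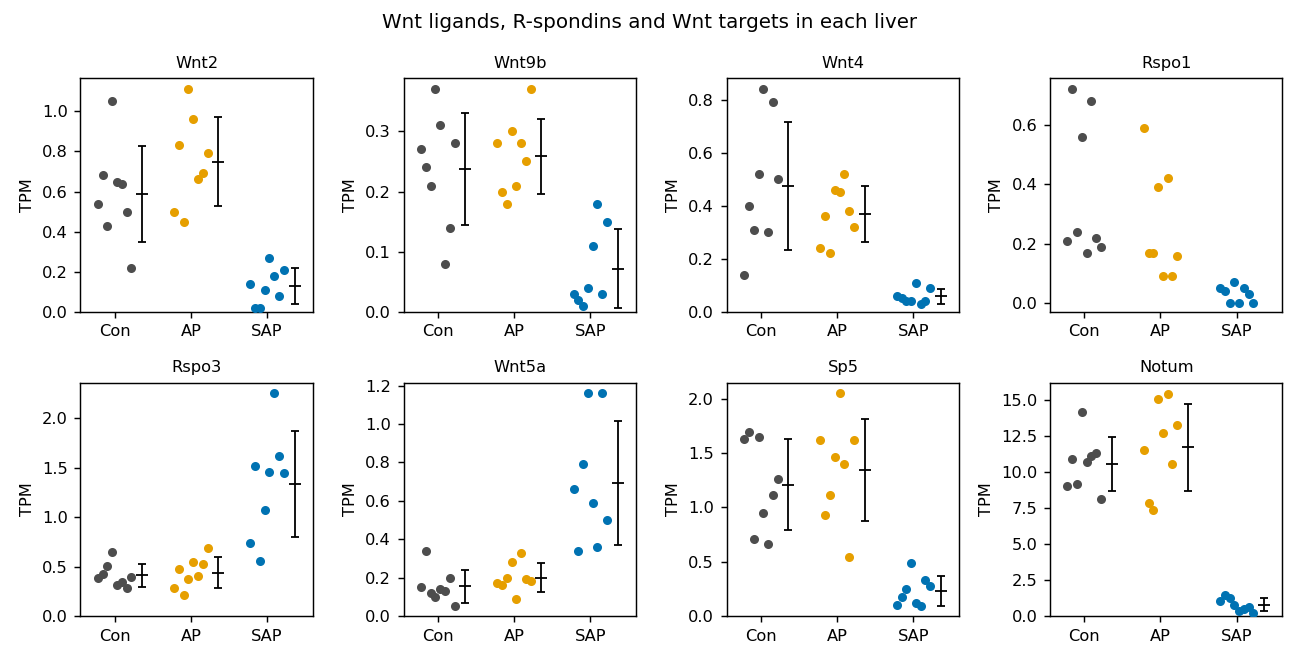
Expression (TPM, linear axes) of 4 ligand genes that were lower in SAP, of Rspo3 and Wnt5a, which were higher, and of the Wnt targets Sp5 and Notum, in each of the 24 livers. Bars show mean and SD of a group (n = 8), left out for Rspo1, which is listed at 0 in 3 SAP livers; Notum is between 8.15 and 14.2 TPM in controls and between 0.18 and 1.47 TPM in SAP.

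Of 8 tested Wnt receptor genes, 4 rose and 1 fell in SAP against controls and 3 did not pass, with a median log2 change of 0.32 against 0.21 over all genes tested. Among all genes tested 44.2% rose and 29.8% fell. Fzd6, a Frizzled receptor, rose from 0.586 ± 0.234 to 2.6 ± 0.550 TPM (limma adjusted p = 6.39e-10), Fzd1 from 0.720 ± 0.158 to 2.15 ± 0.880 TPM (adjusted p = 5.59e-06) and the co-receptor Lrp6 from 1.80 ± 0.22 to 3.31 ± 0.689 TPM (adjusted p = 8.15e-06). The gene that fell was Fzd7. The filter took the mean over all libraries, so a gene could pass it through SAP alone. Fzd6 and Fzd1 did so (0.434 and 0.724 TPM on average in AP). A gene low in SAP could miss it, as Axin2 and Sp5 did. The counts and medians of rises and falls in these lists depend in part on this. Of 13 tested genes of the signal relay, 6 rose, 3 fell and 4 did not pass, with a median of 0.21. Axin1, a scaffold of the complex that degrades beta-catenin as Axin2 is, rose from 1.30 ± 0.372 to 8.92 ± 2.57 TPM (adjusted p = 4.55e-11), the kinase Csnk1a1 from 4.84 ± 0.979 to 19.1 ± 6.32 TPM (adjusted p = 2.31e-10) and the kinase Gsk3b from 2.74 ± 0.457 to 5.87 ± 0.965 TPM (adjusted p = 1.42e-07). Of other parts of that complex, Btrc (adjusted p = 0.243) and, without a filter, Apc (adjusted p = 0.277) did not pass. Beta-catenin itself (Ctnnb1) was at 31.8 ± 4.92 TPM in controls and 40.1 ± 20.7 TPM in SAP and did not pass (adjusted p = 0.428). Its levels ran from 20.7 to 26.5 TPM in SAP 21, 22, 24 and 25 and from 33.5 to 70.6 TPM in SAP 26 to 29, of which 3 lay above every control. Tcf7l2, the main TCF factor of liver, fell by 0.92 ± 0.25 on the log2 scale (adjusted p = 0.00167). Other TCF factors went the other way. Tcf7 rose by 1.29 ± 0.18 (adjusted p = 5.01e-07), having passed the filter through SAP alone, and Tcf7l1 by 0.79 ± 0.20 (adjusted p = 0.00105). Btrc, Apc, Ctnnb1, Tcf7l2, Tcf7 and Tcf7l1 were named after their values were seen.

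Of 7 tested Wnt targets and inhibitors, 4 fell in SAP against controls, 2 rose (Myc and Kremen1) and 1 did not pass, with a median log2 change of -1.34. Over all genes tested the median was 0.21, with 44.2% higher and 29.8% lower. Notum, a secreted enzyme that inactivates Wnt ligands and is a pericentral Wnt target, fell from 10.6 ± 1.86 to 0.770 ± 0.454 TPM (limma adjusted p = 1.7e-13). Lect2, a secreted hepatocyte protein and beta-catenin target, fell from 308 ± 51.4 to 52.9 ± 28.9 TPM (adjusted p = 6.62e-11). Tnfrsf19, a receptor of the tumour necrosis factor receptor family, fell from 2.93 ± 0.692 to 0.551 ± 0.250 TPM (adjusted p = 1.75e-09). In each of these 3 genes all 8 SAP livers lay below every control. Sp5, a transcription factor and direct Wnt target under the filter, was at 1.21 ± 0.420 and 0.229 ± 0.138 TPM, again with no overlap (adjusted p = 1.33e-05 without a filter). It was named after its values were seen. The other genes of this list under the filter did not fall with it. In limma without a filter, Dkk3 (adjusted p = 4.21e-06), Apcdd1 (0.00484), Sfrp1 (0.0288) and Wif1 (0.0241) passed as higher, and Sfrp5 did not pass. Dkk3 went from 0.443 ± 0.165 to 1.90 ± 0.839 TPM, and the others averaged at most 0.158 TPM in SAP (Sfrp1). None of the receptor, relay and target genes tested passed in AP against controls, where the list medians were -0.07, 0.05 and -0.09 against 0.06 over all genes tested.

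Other genes known for their place in the lobule changed in both directions in SAP, as did tested genes at large. Of all tested genes 44.2% rose and 29.8% fell against controls, with a median log2 change of 0.21. With most genes called, such counts by themselves set a list apart little. Of 17 other pericentral genes tested, 5 rose, 8 fell and 4 did not pass against controls (median log2 change -0.34). Nr1i3, the nuclear receptor CAR, fell from 53.9 ± 17.7 to 3.92 ± 1.10 TPM (limma adjusted p = 7.34e-14), and Akr1c6, a steroid-metabolizing reductase, from 171 ± 54.5 to 30.9 ± 15.0 TPM (adjusted p = 7.18e-09). Glul, glutamine synthetase of the innermost pericentral hepatocytes, was among those that rose, from 89.3 ± 12.4 to 227 ± 62.7 TPM with all 8 SAP livers above every control (adjusted p = 1.33e-07). Glul is set beside Slc1a2 for its shared cells, was named after its values were seen, and did not pass in AP. Of 21 other periportal genes tested, 4 rose, 10 fell and 7 did not pass (median -0.67). Sdsl, a serine dehydratase-like protein, rose from 7.92 ± 2.25 to 90.3 ± 27.2 TPM (adjusted p = 7.03e-14). Igfals, which carries insulin-like growth factors in plasma, went from 46.4 ± 10.2 to 6.88 ± 4.54 TPM (adjusted p = 3.21e-10), and the steroid dehydrogenase Hsd17b6 fell from 59.5 ± 13.0 to 7.14 ± 5.56 TPM (adjusted p = 3.84e-10). In AP against controls, Cyp2e1 and Por rose among the pericentral genes (15 did not pass, median 0.35) and Fbp1 among the periportal genes (20 did not pass, median -0.17). Over all tested genes 4.35% rose in AP, and the median was 0.06. Genes that passed in AP are named because they were few, after their values were seen.

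**Figure D4:**
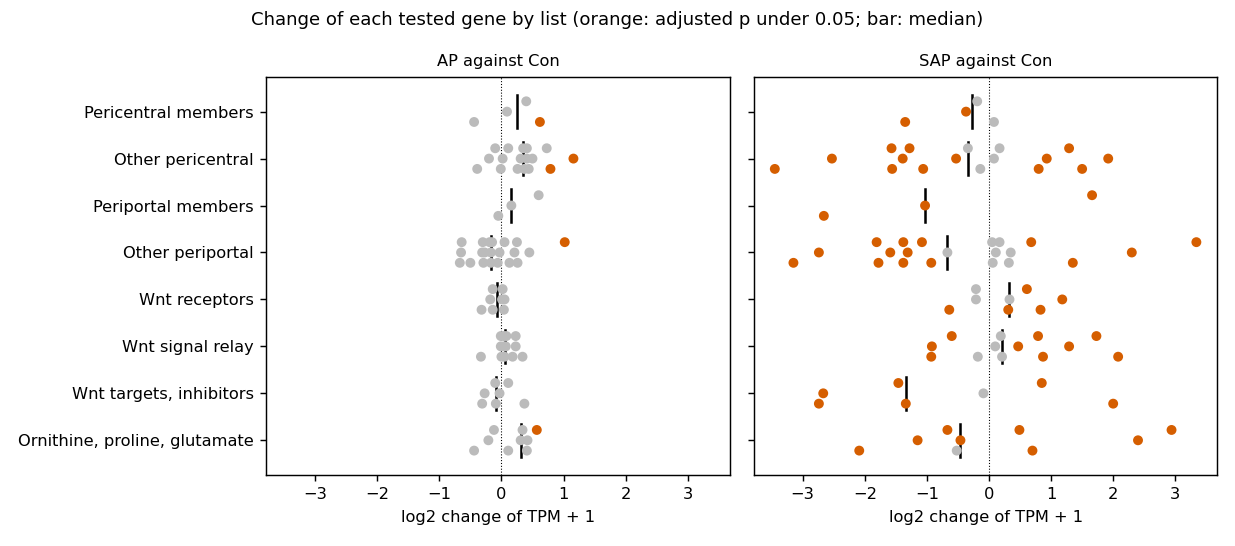
Log2 change of TPM + 1 (x axis) of every tested gene of 8 lists (rows) in AP and SAP against controls, 8 livers a group. Each dot is a gene, orange where its limma adjusted p is under 0.05, and the bar is the list's median; in SAP the median is -1.34 for Wnt targets and inhibitors and 0.32 for Wnt receptors.

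Of 9 tested genes of ornithine, proline and glutamate metabolism, the surroundings of Oat, 4 rose, 4 fell and 1 did not pass in SAP against controls. Over all tested genes 44.2% rose and 29.8% fell in that comparison. Odc1, which turns ornithine into the polyamine putrescine, rose from 2.81 ± 0.756 to 20.7 ± 9.83 TPM (limma adjusted p = 1.44e-09), and the cytosolic aspartate aminotransferase Got1 from 6.90 ± 3.49 to 72.6 ± 56.8 TPM (adjusted p = 2.76e-07). Prodh, which breaks down proline, fell from 85.7 ± 13.0 to 22.3 ± 12.2 TPM (adjusted p = 8.17e-08). In AP 1 gene, Got2, rose and 8 did not pass, where 4.35% of all tested genes rose against controls.

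Among 5688 genes averaging 5 TPM or more, the profiles nearest to each of the 7 members that passed the filter (not Axin2 or Lgr5) were found by the root mean square difference over the 24 livers of log2(TPM + 1) from the control mean. Nearest to Tbx3 were Kng1 (0.153) and Ifnar2 (0.184), to Slc1a2 Acsm1 (0.229) and Cyp2d26 (0.248), to Rnf43 Gm27463 (0.256) and Aspg (0.295), and to Oat Cyp2d9 (0.308) and Serpinc1 (0.329). Nearest to Hsd17b13 were Psmd3 (0.196) and Cops4 (0.199), to Aldh1b1 Nipsnap1 (0.317) and Ivd (0.317), and to Etnppl Tk1 (0.525) and Emc9 (0.546). The own root mean square distance of these 7 members from the control mean was between 0.397 (Tbx3) and 1.69 (Etnppl). For Oat it was 0.422, not far above the distances to its nearest genes, so their likeness is weak. Tbx3 averaged 2.28 TPM in AP and 0.91 TPM in SAP, and Kng1 1040 and 633 TPM. The scale understates changes of low genes, so these 2 profiles look more alike on it than in TPM.

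Markers of other cells moved with SAP. The summed level of 6 neutrophil markers was 2.08 to 27.0 TPM in controls, 2.79 to 7.3 TPM in AP and 125 to 355 TPM in SAP, and 3, 2 and 0 of the 6 had a group mean under 0.1 TPM. The 5 hepatocyte secreted genes summed to 48100 to 58200 TPM in controls, 42700 to 57500 TPM in AP and 37200 to 48200 TPM in SAP, so hepatocyte RNA was abundant in every library. Bile duct markers summed to 12.3 to 25.9, 12.0 to 34.5 and 23.7 to 80.1 TPM, mostly Spp1, which rose in SAP, while Krt19 did not pass (1.27 TPM in SAP against 2.23 TPM in controls). Kupffer cell markers summed to 54.4 to 210, 39.0 to 123 and 42.9 to 85.7 TPM, and in SAP Clec4f, Timd4, Vsig4 and Cd5l fell while Marco rose. Lymphocyte markers summed to 0.46 to 3.03, 0.53 to 4.14 and 0.45 to 1.97 TPM (3, 3 and 4 of 6 with a group mean under 0.1 TPM). The 6 markers of the exocrine pancreas summed to at most 0.98 TPM in any liver, with 6, 5 and 6 of them under that mean. The part of these cells in the levels of the 9 genes was not tested.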

How the data were processed

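Livers had been frozen in liquid nitrogen, RNA taken up in Trizol and Illumina libraries made by standard steps, per the labels' protocols. The authors deposited 1 table of TPM with 2 decimals. No header names this unit, which was inferred from the column sums. Of tools, the submitters' processing notes list edgeR alone, without a role or version. The sources used here name no aligner, build or annotation.

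Groups and library numbers were taken from the titles, and 0 columns stayed unmapped. Of the 55536 entries, 237 share a symbol with another and were kept apart, and 28559 are 0 in every library. For genes averaging 1 TPM or more, log2(TPM + 1) was modelled by group over the 24 libraries with limma's trend method (limma 3.58.1, R 4.3.3), leaving 21 residual degrees of freedom, and p-values were adjusted by Benjamini-Hochberg in each comparison. The fit was tested on simulated data. Members with a lower mean were tested by exact permutation over all 12870 arrangements of 8 against 8 livers, two-sided.

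The members and the gene lists were chosen with earlier results of these data known. Named genes were the members, the 3 genes per pathway list with the smallest p over all groups, and the 2 nearest profiles per member among genes averaging 5 TPM or more. Of these, 1 gene that this rule took from a list is not reported here, but stayed in all tests and counts. Alternatives were quantile normalization, median centring, rescaling without the 50 most abundant genes or mitochondrial transcripts, other variance models, filters, pseudocounts (0.1 and 0.01) and thresholds, the 2 groups alone, and leaving out each library or sets of 4. The sets of 4, in SAP and in AP, were chosen with the data known. Transcripts of the members were compared with all others of GENCODE M21 in windows of 50 bases, and at most 2.02% of a member's windows (Axin2) occur in another gene. Axin2, Tbx3 and Slc1a2 overlap antisense genes, of which Gm11670 (Axin2) is listed at 0 in every library and Gm13872 (Slc1a2) reaches at most 0.02 TPM.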

Additional observations from a re-analysis of the deposited data

Results flagged for a closer look

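Among 81 sets of 8 livers (27 genes in 3 groups), 8 had a liver whose gap to its nearest neighbour was a larger part of the range than Dixon's critical value allows. For normally spread values chance alone gives about 1 in 20. The test used TPM without logs and every flagged liver was the highest of its set, so the share that chance gives here is not known. Of the members, Lgr5 was flagged in SAP 22 at 0.71 TPM, with the next SAP liver at 0.10 TPM, and Axin2 in SAP 29 at 0.53 TPM, with the next at 0.31 TPM. In SAP 22 Axin2 was at 0.17, Rnf43 at 1.24 and Sp5 at 0.17 TPM, all within the range of the other SAP livers.

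Of the genes named from the lists, Fzd6 was flagged in SAP 28 (3.81 TPM), Sdsl in SAP 29 (149.89 TPM), Gsk3b in Con 9 (3.75 TPM), Got1 in Con 6 (14.77 TPM) and in AP 15 (16.47 TPM), and Prodh in Con 6 (113.77 TPM). The causes were not tested.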

How the results depend on the processing

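Over 40 alternatives, no member or named gene that passed in the tests reported above changed direction. The genes named from the lists had been picked for small p-values in these same data, so their steady direction is no further support. Rnf43, Etnppl, Aldh1b1 and Hsd17b13 stayed past the threshold in SAP against controls and against AP in all 40, as did Tbx3 against AP. The number of members higher in AP went from 1 to 3 with median centring or array weights, to 0 after rescaling without the 50 most abundant genes, at a threshold of 0.01 or without AP 15, 17, 18 and 19, and to 2 without AP 11, 12, 13 and 16. It was 0 to 3 with single libraries left out (0 without Con 7, 3 without Con 3 or Con 6, 2 without AP 13). The number higher in SAP against controls went from 1 to 2 without SAP 26 to 29. The exact permutation tests that passed for Axin2 and Lgr5 went from 2 to 4 of 6 without SAP 21, 22, 24 and 25, and were 2 to 4 with single libraries left out (4 without SAP 22). Leaving out single libraries kept 1 higher and 4 lower in SAP against controls, 1 higher and 5 lower in SAP against AP and 0 lower in AP. Under other alternatives the numbers lower moved. Against controls it was 3 with array weights, at a threshold of 0.01 or without SAP 26 to 29, and up to 6 without a filter, where all 9 members were tested. Against AP it was 4 without SAP 26 to 29 or without AP 15, 17, 18 and 19, and up to 7 without a filter. Over all tested genes the calls in AP ranged from 9 to 1252 higher and from 2 to 265 lower, with both lowest counts without AP 15, 17, 18 and 19. Single libraries moved them as well, to 159 higher and 50 lower without Con 1, 135 and 44 without Con 7, 155 and 70 without Con 10, 137 and 47 without AP 15, 158 and 53 without AP 17, 281 and 71 without AP 18, 178 and 60 without AP 19 and 715 and 125 without Con 3. The cause was not tested. No paired analysis was possible because the groups share no replicate numbers. TPM keep no depth, so no counting error can be given for genes near the table's limit such as Lgr5.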
